A study of Mus musculus with 6 samples.

Results

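The genes described here mark macrophages and other leukocytes in mouse quadriceps, a thigh muscle of mainly fast fibres. They are 37 genes, and every probe set whose platform annotation names exactly 1 of them was taken, which gave 37 of the 18193 genes on the array and 68 of its 45037 probe sets, controls left out. The ERRgamma transgenic mice (3 arrays; genotype spelled hSkeletal Actin -ERRg transgenic) carried ERRγ driven by α-skeletal actin regulatory sequence, so by a promoter of striated muscle fibres rather than of leukocytes, and the wild-type mice (3 arrays) did not. ERRγ is an orphan nuclear receptor that is encoded by Esrrg and acts on many genes of oxidative metabolism. All were C57/BL6 males of 8 weeks, and the labels record no further allele or agent and no number of transgenic lines. The titles call the arrays of a genotype biological replicates without saying that each is 1 animal, so p-values measure the spread between these samples. The comparison asks how transcripts of quadriceps muscle differ when fibres carry this receptor.

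Skeletal muscle holds resident macrophages between its fibres, together with few lymphocytes and granulocytes. In the mouse, tissue macrophages depend on the growth factor receptor Csf1r. Many resident ones bear scavenger and uptake receptors such as CD163, the mannose receptor Mrc1 and the folate receptor Folr2, and they are a main source of complement C1q. Other macrophages and dendritic cells are recognised by MHC class II, which presents peptides to T cells, or by the chemokine receptor Ccr2 of monocytes.

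The upstream sequences of 4 genes whose mean signals were lower in transgenic muscle, of which Folr2 and Lyz2 passed the test, and of 2 class II genes whose signals were close in the genotypes are printed here, because many macrophage genes are under the transcription factor PU.1 and class II genes under a conserved promoter with a Y box. Each run is the 250 bases before a transcription start in RefSeq's table of build GRCm38.p6, written 5′ to 3′ on the gene's strand. In the first set the capitals mark AGGAAGT or its complement ACTTCCT, a sequence of the kind that PU.1 and other ETS factors bind. The windows are chr7:101857191-101857440 (minus strand) for Folr2, 1 of the 2 starts listed (the window of the other holds 0 matches), chr10:117282273-117282522 (minus strand) for Lyz2, chr4:136886201-136886450 (minus strand) for C1qb and chr4:136892915-136893164 (minus strand) for C1qc.
Folr2: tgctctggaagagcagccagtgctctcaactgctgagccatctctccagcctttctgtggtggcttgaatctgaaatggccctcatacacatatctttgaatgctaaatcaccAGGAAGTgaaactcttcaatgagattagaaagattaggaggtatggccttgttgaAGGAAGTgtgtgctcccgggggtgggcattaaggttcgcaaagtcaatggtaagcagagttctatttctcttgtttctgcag
Lyz2: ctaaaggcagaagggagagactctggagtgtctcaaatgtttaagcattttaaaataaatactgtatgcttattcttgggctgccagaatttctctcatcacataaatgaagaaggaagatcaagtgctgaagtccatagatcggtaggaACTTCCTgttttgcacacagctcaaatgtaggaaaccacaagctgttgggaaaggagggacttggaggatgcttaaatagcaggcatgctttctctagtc
C1qb: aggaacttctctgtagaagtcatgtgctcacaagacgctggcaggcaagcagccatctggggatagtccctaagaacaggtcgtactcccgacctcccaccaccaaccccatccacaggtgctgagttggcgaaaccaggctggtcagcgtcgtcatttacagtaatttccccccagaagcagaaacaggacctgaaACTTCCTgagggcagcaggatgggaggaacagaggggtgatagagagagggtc
C1qc: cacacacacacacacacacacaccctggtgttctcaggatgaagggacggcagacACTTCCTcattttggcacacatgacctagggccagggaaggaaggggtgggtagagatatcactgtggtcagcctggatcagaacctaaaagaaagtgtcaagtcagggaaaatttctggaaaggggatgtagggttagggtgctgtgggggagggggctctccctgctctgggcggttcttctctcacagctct

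In the second set the capitals mark every ATTGG or CCAAT, the letters at the core of the Y box. A match alone does not make a stretch the Y box. The windows are chr17:34287824-34288073 (minus strand) for H2-Aa and chr17:34305617-34305866 (plus strand) for H2-Eb1.
H2-Aa: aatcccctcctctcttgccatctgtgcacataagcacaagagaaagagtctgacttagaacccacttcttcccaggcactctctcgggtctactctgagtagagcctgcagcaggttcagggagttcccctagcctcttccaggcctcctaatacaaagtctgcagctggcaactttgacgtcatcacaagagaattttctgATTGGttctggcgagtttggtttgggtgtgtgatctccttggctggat
H2-Eb1: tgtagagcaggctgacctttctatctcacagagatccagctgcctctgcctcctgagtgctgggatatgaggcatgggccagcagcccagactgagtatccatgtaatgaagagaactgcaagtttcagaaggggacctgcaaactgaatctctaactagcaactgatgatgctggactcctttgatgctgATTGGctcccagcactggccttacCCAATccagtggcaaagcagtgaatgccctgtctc

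On either strand, AGGAAGT was present upstream of 10 of the 25 leukocyte genes with an entry in the table, in 11 of 28 windows (39.3%), and in 7.69% of all 32851 windows. Those genes were Ptprc, Lyz2, Mrc1, Folr2, Fcgr1, C1qb, C1qc, Cd79a, Cd3e and S100a8. ATTGG was present in 8 of the 28 leukocyte windows (28.6%) and in 11120 of all windows (33.85%), so it was not more frequent upstream of the leukocyte genes. The 4 genes printed in the first set all have a match to AGGAAGT, so they do not stand for all genes with lower means. Cd163, with means of 216.0 units in transgenic and 337.5 units in wild-type muscle, has an entry but no match. Both searches were chosen after the values had been seen, and a match describes letters and not a bound site. Position is another feature that the choice of genes did not use. C1qb, C1qc and C1qa lie next to each other on chromosome 4, H2-Ab1, H2-Aa and H2-Eb1 on chromosome 17, and S100a8 and S100a9 on chromosome 3, with 0 protein-coding genes between neighbours.

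Most leukocyte genes had mean signals somewhat below those of wild-type muscle in transgenic muscle, and 3 passed the test. Each gene was represented by its probe set with the highest mean signal, tested if that mean over the 6 arrays was above 37.8 units, and compared with limma on log2(signal + 16). A gene passed if its p, adjusted by Benjamini-Hochberg across the 26997 probe sets tested, was under 0.05. Of the 37 genes 30 were tested. Ighm, Folr2 and Lyz2 were lower in transgenic muscle and 0 genes were higher, against 5.75% lower and 7.65% higher among all 12530 tested genes. At an unadjusted p under 0.05, 9 were lower and 0 higher by limma, against 12.4% and 15.5% of all tested genes. The median log2 difference, transgenic minus wild-type, was -0.25 over the 30 genes and 0.03 over all tested genes, and 23 of 30 differences (76.7%) lay below 0, against 46.2% of all. The genotypes' ranges did not overlap, with transgenic muscle lower, for 6 genes (20.0%; all tested genes 14.7%), and with transgenic muscle higher for 2 (all tested genes 18.6%). The share called lower, 10%, rests on 3 genes and lies near that of all genes. Without Ighm, 2 of 29 genes were lower and the median was -0.22. Counted by probe set, 51 of 68 were tested, of which 5 were lower, 1 was higher and 45 did not pass, against 5.16% lower, 6.37% higher and 11.5% in either direction among all tested probe sets, while 13.4% of all tested genes passed in either direction. The ranges did not overlap for 10 probe sets with transgenic muscle lower and 6 with it higher (all probe sets 13.2% and 17.8%), and 33 differences lay below 0 (64.7%; all probe sets 44.6%). At an unadjusted p under 0.05, 13 probe sets were lower and 4 higher (all probe sets 11.2% and 14.4%). In bulk muscle, fewer cells of a type and less RNA per cell cannot be told apart.

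**Figure D1:**
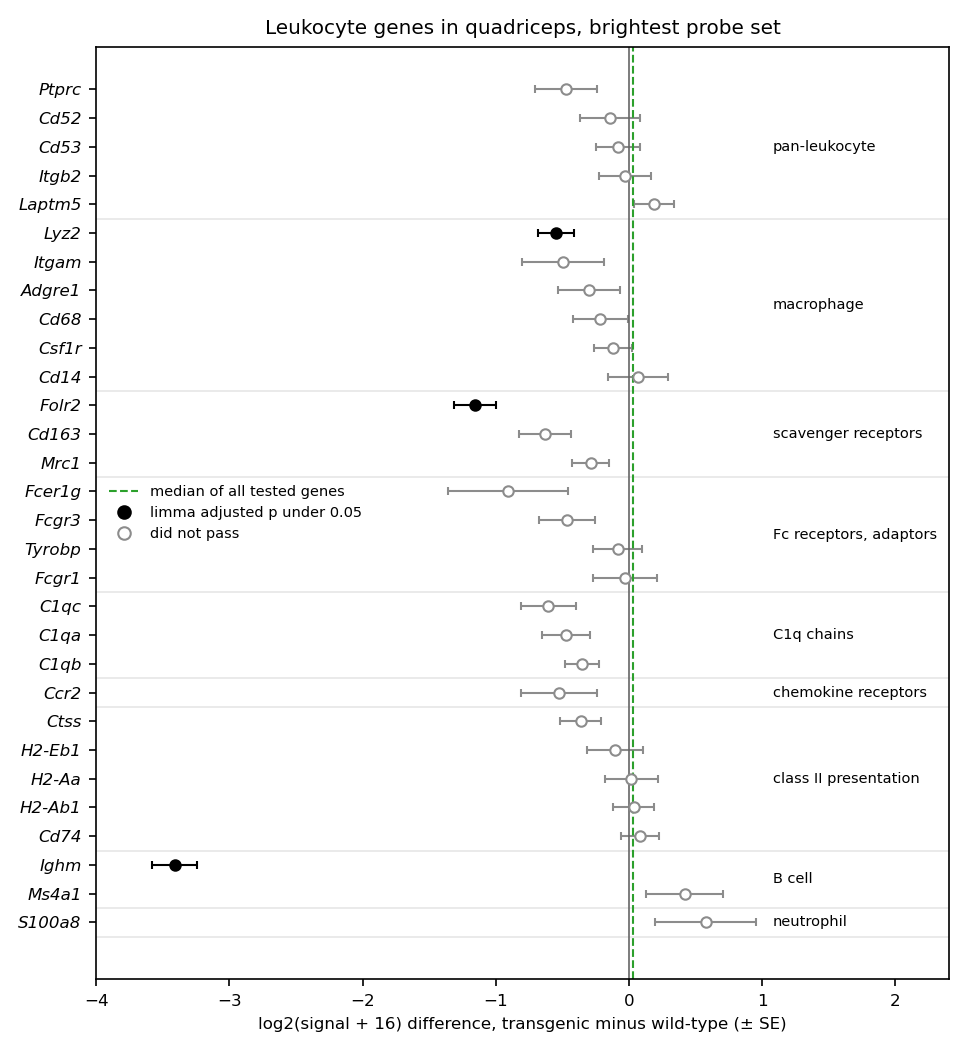
Difference of log2(signal + 16), transgenic minus wild-type, with its SE for the 30 tested leukocyte genes at their brightest probe set, grouped by role. Filled points passed limma at an adjusted p under 0.05 and the dashed line is the median of all tested genes, 0.03; Ighm, Folr2 and Lyz2 are the filled points, at -3.41, -1.15 and -0.55.

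As a check of the labels, the brightest Esrrg probe set gave 14427, 13808 and 12697 units in the transgenic arrays, against 71.6, 61.0 and 24.1 units in the wild-type arrays. Of the 8 muscle fibre markers, all were tested and 0 passed (1 lower and 0 higher at an unadjusted p under 0.05 by limma), and their summed signal was 152900 to 175100 units in transgenic and 142600 to 185100 units in wild-type arrays. The median signal of an array was 57.1 to 61.9 units in transgenic and 52.1 to 56.3 units in wild-type muscle. The median difference of all genes was 0.03, and it was -0.11 when every array was scaled to 1 median over all probe sets. Relative to it the leukocyte median was -0.29 under either scaling.

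The scavenger and uptake receptors of resident macrophages had the lowest median of the macrophage groups, -0.63 over 3 genes, of which Folr2 passed. Folr2, which takes up folate and is used as a mark of resident macrophages, gave 91.1, 71.9 and 77.6 units in transgenic muscle, against 199.1, 190.9 and 202.3 units in wild-type muscle (probe set 1451648_a_at). Every transgenic array lay far below every wild-type array, and arrays of 1 genotype were close to each other. The means were 80.2 ± 9.86 and 197.4 ± 5.88 units (SD, n = 3 each), a ratio of transgenic to wild-type of 0.406, and the log2 difference was -1.15 (SE 0.16, limma adjusted p = 0.00118). Folr2 passed under all 19 alternatives, with adjusted p between 0.000601 and 0.0109. An exact permutation of the arrays, two-sided, gave p = 0.1, which is the lowest p available with 3 arrays per genotype.

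Cd163, the receptor for haemoglobin bound to haptoglobin, gave 157.2, 213.4 and 277.5 units in transgenic muscle, against 342.0, 287.0 and 383.6 units in wild-type muscle. The ranges did not overlap, by a small margin between transgenic 3 and wild-type 2. Its log2 difference of -0.63 (SE 0.20) missed the threshold, with a limma adjusted p of 0.0635. The call was made when transgenic 3 was left out (adjusted p = 0.0282), without replicate 3 of both genotypes (0.0465) and with arrays scaled to 1 median (0.0342 over all probe sets, 0.0431 over those tested). Mrc1, the mannose receptor CD206, gave 425.4, 466.6 and 392.6 units in transgenic muscle, against 585.8, 440.2 and 561.9 units in wild-type muscle. The ranges overlapped through wild-type 2, and the log2 difference of -0.29 (SE 0.14) did not pass (limma adjusted p = 0.223).

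The C1q chains form the first component of the classical complement pathway, and all 3 had differences below 0, with a median of -0.48. None passed at its brightest probe set. All 3 were lower at an unadjusted p under 0.05 by limma, as were 12.4% of all tested genes. C1qa gave 265.2, 285.9 and 221.8 units in transgenic muscle, against 421.6, 271.4 and 415.4 units in wild-type muscle. C1qb gave 278.6, 337.7 and 311.2 units in transgenic muscle, against 374.5, 431.4 and 389.9 units in wild-type muscle. C1qc gave 158.6, 249.4 and 141.7 units in transgenic muscle, against 310.7, 227.7 and 307.5 units in wild-type muscle. Ranges were apart for C1qb only, since wild-type 2 was low for C1qa and C1qc and transgenic 2 was high for C1qc.

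The log2 differences were -0.48 for C1qa (SE 0.18, limma adjusted p = 0.124), -0.35 for C1qb (SE 0.13, 0.110) and -0.61 for C1qc (SE 0.21, 0.0898). C1qa passed without wild-type 2 (adjusted p = 0.0347) and C1qc without transgenic 2 (0.0234). All 3 passed with arrays scaled to 1 median over all probe sets (adjusted p of 0.0381, 0.0476 and 0.0326), a scaling under which 9.81% of all tested genes were called lower. C1qb had 2 further probe sets. The dimmer, 1437726_x_at, passed with 182.3, 231.1 and 301.5 units in transgenic muscle, against 447.2, 359.2 and 342.7 units in wild-type muscle. Its log2 difference was -0.67 (SE 0.18, limma adjusted p = 0.0401). It did not pass without transgenic 1, transgenic 2, wild-type 1 or wild-type 2 (adjusted p of 0.0855 to 0.156), without the filter on dim probe sets (0.0694) or without the intensity trend (0.106). The third probe set differed by -0.35 (SE 0.16) and did not pass (limma adjusted p = 0.209). With the 3 probe sets averaged, C1qb differed by -0.46 and passed (limma adjusted p = 0.0271).

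**Figure D2:**
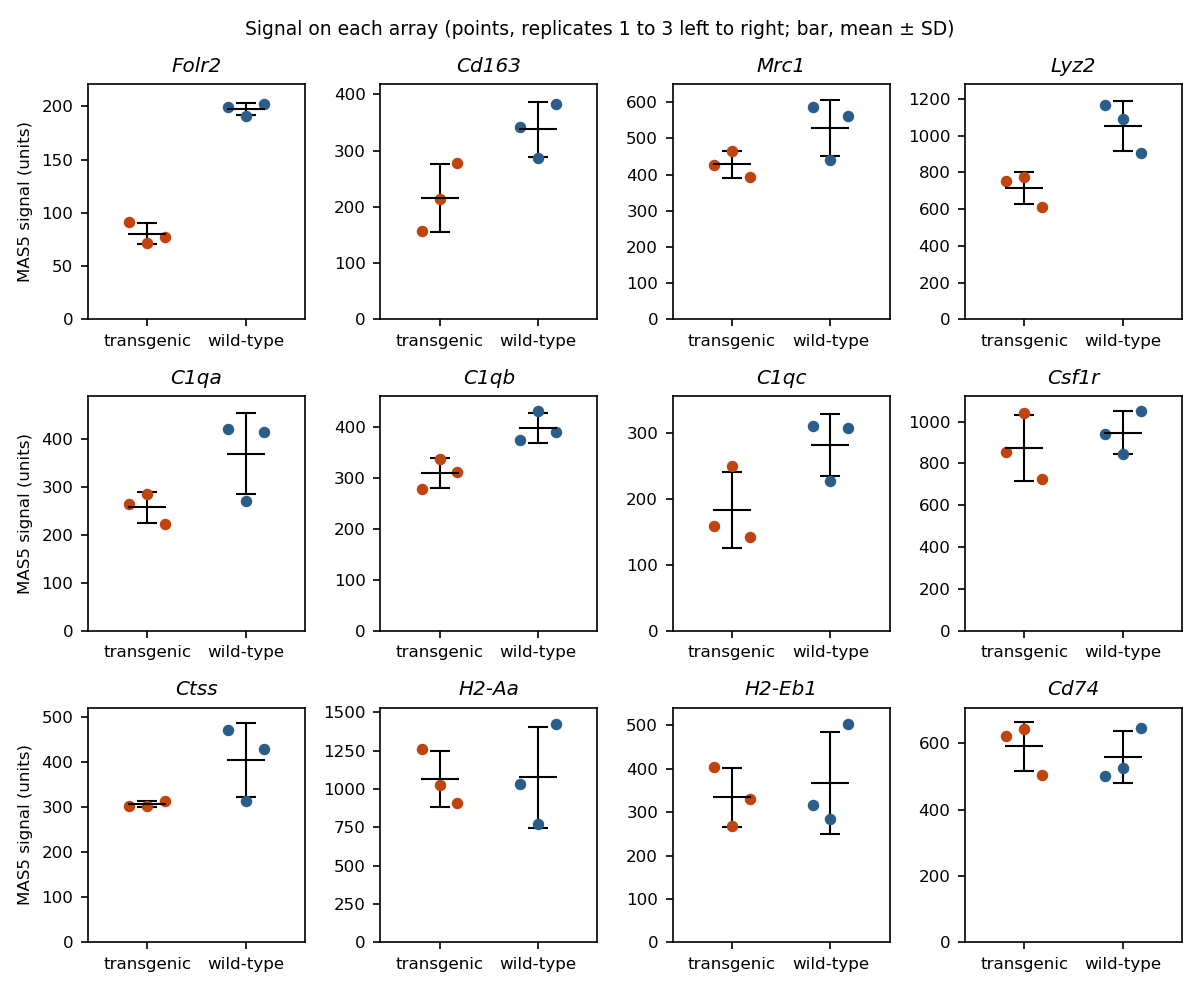
MAS5 signal in linear units on each of the 6 arrays for 12 leukocyte genes at their brightest probe set, with the mean and SD per genotype. Transgenic and wild-type points are apart for Folr2, Cd163, Lyz2 and C1qb. They overlap for Mrc1, C1qa, C1qc, Csf1r and Ctss, and for the class II genes H2-Aa, H2-Eb1 and Cd74.

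Among the general macrophage genes, 1 of 6 tested was lower, 0 were higher and the median was -0.26. Lyz2, which encodes the lysozyme of macrophages and neutrophils, gave 753.5, 773.5 and 613.7 units in transgenic muscle, against 1167, 1089 and 903.7 units in wild-type muscle. The ranges were apart, and transgenic 3 and wild-type 3 were the lowest of their genotypes. Means were 713.6 ± 87.1 and 1053 ± 135 units (SD, n = 3 each), and the log2 difference was -0.55 (SE 0.13, limma adjusted p = 0.0244). The call was kept without transgenic 2 (adjusted p = 0.0389), without wild-type 3 (0.00878) and without replicate 3 of both genotypes (0.0179). It was lost on leaving out any of the other arrays. The adjusted p was then 0.0592 without transgenic 1, 0.0794 without transgenic 3, 0.110 without wild-type 1 and 0.0891 without wild-type 2, and it was 0.0938 without the intensity trend in the variance model.

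Csf1r, the receptor on which macrophages depend, gave 855.2, 1042 and 725.6 units in transgenic muscle, against 939.9, 846.7 and 1052 units in wild-type muscle. The ranges overlapped almost entirely, and the log2 difference was -0.12 (SE 0.14, limma adjusted p = 0.647). Its other probe sets differed by -0.35 (SE 0.17) and 0.05 (SE 0.17) and did not pass either. Adgre1, the macrophage surface protein F4/80, gave 337.1, 191.7 and 170.0 units in transgenic muscle, against 293.6, 324.7 and 227.2 units in wild-type muscle. Transgenic 1 held the highest value of all 6 arrays, and the difference of -0.30 (SE 0.23) did not pass (limma adjusted p = 0.455). Without transgenic 1 it was -0.59, with an adjusted p of 0.0963.

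The endosomal protein Cd68 had 67.3 to 92.9 units in transgenic and 80.0 to 115.8 units in wild-type muscle, a log2 difference of -0.22 (SE 0.21). The integrin Itgam, also known as CD11b, had 25.1 to 58.8 units in transgenic and 49.2 to 90.1 units in wild-type muscle, a difference of -0.50 (SE 0.31). Cd14, a co-receptor for bacterial lipopolysaccharide, had 100.2 to 135.4 units in transgenic and 88.7 to 163.4 units in wild-type muscle, a difference of 0.07 (SE 0.22). None of these passed. Aif1, a calcium-binding protein of macrophages, was not tested, with 3.8 to 40.2 units in transgenic and 22.0 to 51.2 units in wild-type muscle.

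The Fc receptors, which bind antibody, and the adaptors that signal for them had differences below 0 for all 4 genes, and 0 passed (1 lower and 0 higher at an unadjusted p under 0.05 by limma). Fcer1g, the shared γ chain, gave 56.4, 9.7 and 100.9 units in transgenic muscle, against 83.3, 104.8 and 104.0 units in wild-type muscle. Transgenic 2 was far below the others, and without it the log2 difference was -0.30, while with all arrays it was -0.91 (SE 0.45, limma adjusted p = 0.236). Fcgr3, a low-affinity receptor for immunoglobulin G, gave 137.4, 94.8 and 72.1 units in transgenic muscle, against 137.4, 149.3 and 140.2 units in wild-type muscle. Transgenic 1 reached the lowest wild-type value, and the difference was -0.47 (SE 0.21, limma adjusted p = 0.193). The high-affinity receptor Fcgr1 and the adaptor Tyrobp, also known as DAP12, differed by -0.03 (SE 0.24) and -0.09 (SE 0.18).

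The pan-leukocyte genes, expressed by nearly all white blood cells, had a median of -0.08, and 0 of 5 passed (0 in either direction at an unadjusted p under 0.05 by limma). Ptprc, the phosphatase CD45, gave 131.9, 102.5 and 79.0 units in transgenic muscle, against 176.8, 105.0 and 173.9 units in wild-type muscle. Wild-type 2 lay within the transgenic range, and the difference was -0.47 (SE 0.23, limma adjusted p = 0.235). The surface proteins Cd52 and Cd53 and the β2 integrin Itgb2 differed by -0.14, -0.08 and -0.03, each by less than its SE.

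Laptm5, a lysosomal membrane protein of blood cells, had 5 tested probe sets that disagreed in direction. The brightest gave 134.5, 133.5 and 143.8 units in transgenic muscle, against 121.1, 115.2 and 119.5 units in wild-type muscle, a difference of 0.19 (SE 0.15) that did not pass. Of nearly the same brightness, 1436905_x_at gave 108.3, 79.5 and 109.0 units in transgenic muscle, against 166.6, 145.6 and 147.3 units in wild-type muscle. That difference was -0.57 (SE 0.17, limma adjusted p = 0.0618), and another probe set, 1417721_s_at, differed by -0.72 (SE 0.25, 0.0917). So no direction can be given for Laptm5.

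**Figure D3:**
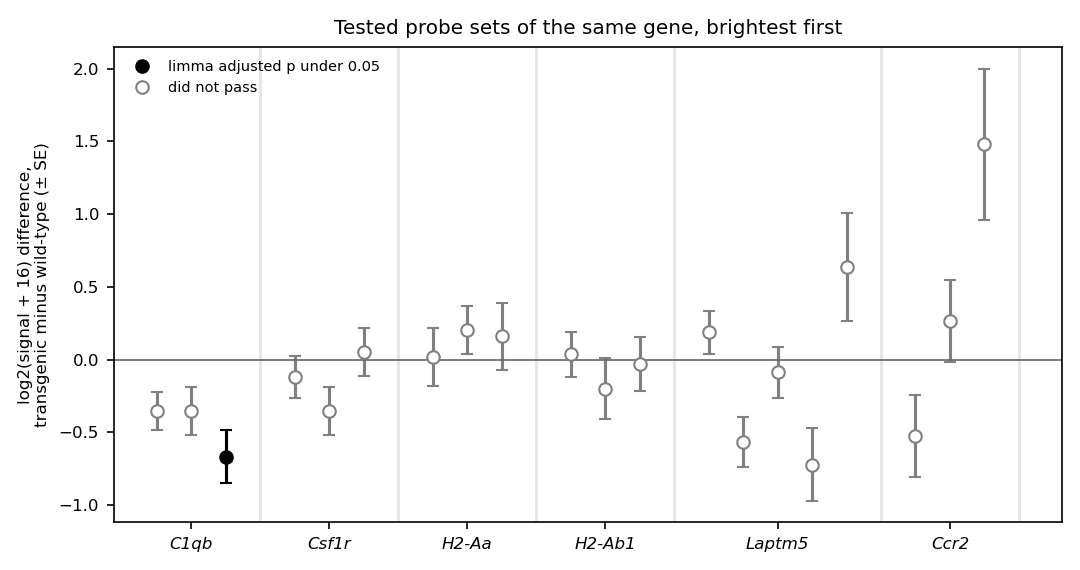
Difference of log2(signal + 16), transgenic minus wild-type, with its SE for every tested probe set of 6 leukocyte genes, brightest first within a gene. The 3 C1qb probe sets lie below 0, while those of Laptm5 and Ccr2 lie on both sides, from -0.72 to 0.64 and from -0.53 to 1.48.

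The class II presentation genes were close in the genotypes, with a median of 0.02, or -0.02 relative to all genes, and 0 of 5 passed (1 lower and 0 higher at an unadjusted p under 0.05 by limma). H2-Aa, the α chain of I-A, gave 1262, 1029 and 907.9 units in transgenic muscle, against 1032, 773.7 and 1425 units in wild-type muscle. H2-Eb1, the β chain of I-E, gave 404.6, 268.3 and 329.7 units in transgenic muscle, against 315.6, 283.5 and 502.3 units in wild-type muscle. For both, wild-type 3 was the highest of the 6 arrays and the transgenic range lay inside or nearly inside the wild-type range.

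Cd74, the invariant chain that escorts class II through the cell, gave 623.4, 643.1 and 505.9 units in transgenic muscle, against 500.6, 526.6 and 647.0 units in wild-type muscle. The log2 differences were 0.02 for H2-Aa (SE 0.20), 0.04 for H2-Ab1 (SE 0.15), -0.11 for H2-Eb1 (SE 0.21) and 0.08 for Cd74 (SE 0.14). Their limma adjusted p lay between 0.768 and 0.970, and H2-Aa, H2-Ab1 and Cd74 turned below 0 when arrays were scaled to 1 median over all probe sets. Ctss, the protease cathepsin S that trims the invariant chain, gave 302.7, 304.3 and 315.3 units in transgenic muscle, against 472.7, 314.4 and 430.7 units in wild-type muscle. Wild-type 2 fell among the transgenic values, and the difference of -0.36 (SE 0.16) did not pass (limma adjusted p = 0.171). Whether the class II genes differ from the scavenger receptors in their response was not tested.

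The chemokine receptors were dim. Ccr2, which brings monocytes out of the blood, had at its brightest probe set 26.7, 55.4 and 68.7 units in transgenic muscle, against 79.7, 75.5 and 72.0 units in wild-type muscle. The ranges were apart, but the difference of -0.53 (SE 0.28) did not pass (limma adjusted p = 0.276). A dimmer probe set, 1460067_at, ran the other way, with 72.7, 126.9 and 16 units in transgenic muscle, against 11.3, 7.2 and 13.5 units in wild-type muscle. Its difference was 1.48 (SE 0.52, limma adjusted p = 0.0974), so no direction can be given for Ccr2 either. The fractalkine receptor Cx3cr1 was not tested, with no signal above 72.5 units.

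Ighm, the constant region of the immunoglobulin μ chain that B cells make, showed the largest change of all leukocyte genes, and its probe sets contradicted each other. The brightest, 1427329_a_at, gave 165.7, 168.6 and 161.1 units in transgenic muscle, against 2218, 2214 and 1419 units in wild-type muscle. Means were 165.1 ± 3.78 and 1950 ± 460 units (SD, n = 3 each), and the log2 difference was -3.41 (SE 0.17, limma adjusted p = 2.82e-06). The wild-type mean was 11.8 times the transgenic mean. Leaving out any 1 array gave differences of -3.62 to -3.30, with adjusted p of 2.54e-07 to 9.91e-05.

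The probe set 1427351_s_at was lower too, with 23.5, 92.4 and 26.3 units in transgenic muscle, against 320.8, 264.8 and 259.2 units in wild-type muscle. Its log2 difference was -2.39 (SE 0.33, limma adjusted p = 0.00129). The probe set 1425247_a_at was higher, with 112.7, 98.1 and 153.2 units in transgenic muscle, against 61.0, 20.5 and 56.4 units in wild-type muscle. That difference was 1.20 (SE 0.30, limma adjusted p = 0.0286), with an adjusted p of 0.0525 to 0.108 without transgenic 1, 2 or 3 or without wild-type 2. It did not pass without the filter (0.0733) or the trend (0.0701) either.

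Of 11 Ighm probe sets 8 were tested, of which 2 were lower, 1 higher and 5 did not pass, against 5.16% lower and 6.37% higher among all tested probe sets. When the log2 values of the 8 were averaged, Ighm differed by -0.21 and did not pass (limma adjusted p = 0.478). Which part of the locus each probe set covers, and whether it matches transcripts of other genes, was not analysed here. A suffix of _s_at or _x_at marks probe sets that can match other transcripts. A further 4 probe sets that name Ighm with other genes were left out.

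**Figure D4:**
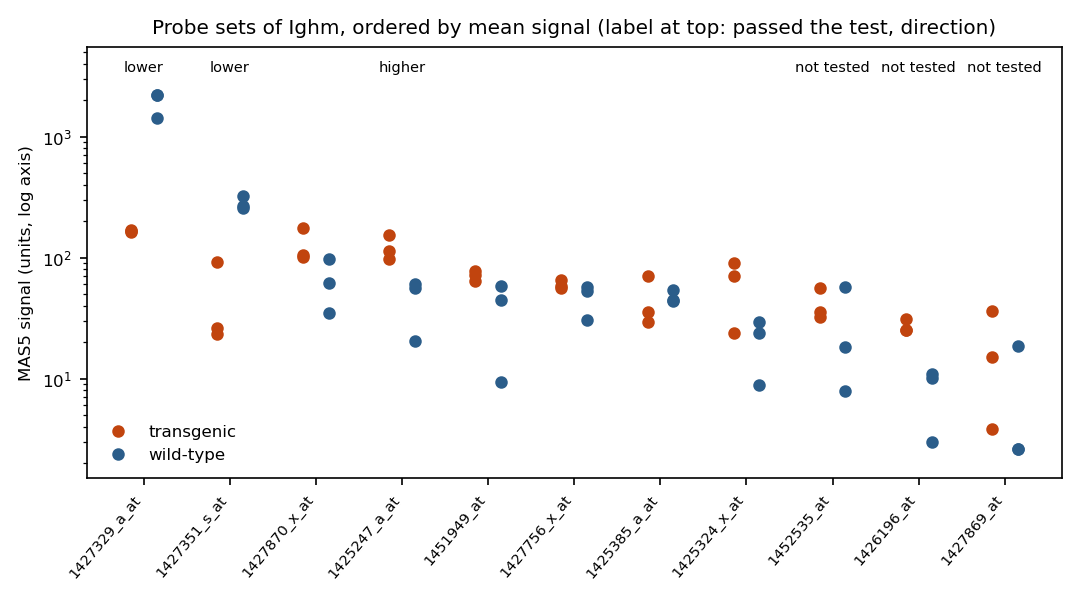
MAS5 signal on a log axis for the 11 probe sets of Ighm, ordered by mean signal, with 3 transgenic and 3 wild-type arrays each. The brightest 2 are lower in transgenic muscle, 161.1 to 168.6 against 1419 to 2218 units at the first, while 1 dimmer probe set is higher, 98.1 to 153.2 against 20.5 to 61.0 units.

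Other B cell genes did not show signals of that size. Cd79a and Cd79b, the signalling chains of the B cell receptor, had 10.4 to 47.7 and 17.7 to 54.1 units in transgenic muscle, against 11.6 to 34.7 and 1.9 to 11.1 units in wild-type muscle, and were not tested. The ranges of Cd79b were apart, at signals near the low end of the arrays. Ms4a1, the surface protein CD20, gave 41.6, 54.4 and 50.2 units in transgenic muscle, against 39.6, 25.2 and 33.3 units in wild-type muscle. Its difference of 0.42 (SE 0.29) did not pass (limma adjusted p = 0.410). Of 33 probe sets for other immunoglobulin chains and the joining chain Jchain, chosen after the values of Ighm had been seen, none exceeded 112.4 units in transgenic or 89.1 units in wild-type muscle. Of these, 4 were tested and 0 passed by limma.

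The T cell genes Cd3e and Cd3g and the neutrophil genes S100a8 and S100a9 had low signals. Cd3e and Cd3g, chains of the T cell receptor complex, had 8.9 to 49.1 and 7.4 to 29.5 units in transgenic muscle, against 15.3 to 36.1 and 18 to 23.6 units in wild-type muscle, and neither was tested. S100a8 and S100a9, the paired calcium-binding proteins of neutrophils, were both highest on transgenic 2. S100a8 gave 24.8, 85.0 and 44.1 units in transgenic muscle, against 23.8, 24.9 and 29.9 units in wild-type muscle, a difference of 0.58 (SE 0.38, limma adjusted p = 0.378) that was 0.23 without transgenic 2. S100a9 gave 11.4, 101.2 and 25.8 units in transgenic muscle, against 28.1, 22.9 and 19.7 units in wild-type muscle, and was not tested.

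Further genes of macrophage, complement, presentation, chemokine, lymphocyte, granulocyte and interferon pathways, 199 in all, were read for comparison. Of 125 tested, 9 were lower (7.2%), 4 were higher (3.2%) and 112 did not pass. Among all tested genes 5.75% were lower and 7.65% higher. At an unadjusted p under 0.05 by limma, lower and higher genes numbered 4 and 1 among other macrophage genes, 3 and 1 in complement, 2 and 0 in presentation, 3 and 1 among chemokines, 2 and 1 among T and NK cell genes, and 1 and 2 in the interferon response. At that unadjusted p, 12.4% of all tested genes were lower and 15.5% higher. These shares of all tested genes are also the background for the counts of each list below. The median difference over the 125 genes was -0.03. Among 24 other macrophage genes, the median difference was 0.02 and 45.8% of differences lay below 0, against 46.2% among all tested genes. Maf, a transcription factor of macrophages that other cells also make, was the only one of the 24 to pass. Maf gave 2298, 2546 and 2486 units in transgenic muscle, against 3906, 3456 and 3448 units in wild-type muscle, a difference of -0.56 (SE 0.10, limma adjusted p = 0.00445). Of its 5 other tested probe sets, 4 were also lower. It did not pass without the intensity trend (adjusted p = 0.0519). Csf1 and Il34, the ligands of Csf1r, differed by 0.15 (SE 0.12) and 0.02 (SE 0.24) and did not pass. Lyve1, a hyaluronan receptor of lymphatic vessels and resident macrophages, gave 140.3, 249.3 and 193.9 units in transgenic muscle, against 247.3, 244.1 and 201.1 units in wild-type muscle, a difference of -0.26 (SE 0.19). Csf1, Il34 and Lyve1 were chosen after their values were seen.

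Of 24 genes of myeloid signalling, 2 were lower and 0 higher (5 and 2 at an unadjusted p under 0.05 by limma). Lsp1, an actin-binding protein of leukocytes, gave 93.7, 136.8 and 135.3 units in transgenic muscle, against 349.2, 386.9 and 419.1 units in wild-type muscle. No transgenic array came near the wild-type range, and the difference was -1.55 (SE 0.17, limma adjusted p = 0.000267). It passed under all 19 alternatives. Sirpa, a receptor for the signal CD47, was lower, with a log2 difference of -0.66 (SE 0.17, limma adjusted p = 0.0315). The adjusted p of Sirpa was 0.0815 to 0.120 without transgenic 2, transgenic 3, wild-type 1 or wild-type 2, and its 2 other tested probe sets did not pass.

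Among 13 complement genes 3 were lower and 1, Cd59a, an inhibitor of the membrane attack complex, was higher by 0.39 (SE 0.11, limma adjusted p = 0.0452). Cd59a did not pass with either median scaling or without the intensity trend. Cd55, which protects cells from complement, gave 453.2, 438.7 and 508.7 units in transgenic muscle, against 939.7, 868.4 and 734.7 units in wild-type muscle. Cd55 differed by -0.83 (SE 0.13, limma adjusted p = 0.00205), and both other tested probe sets of Cd55 were lower too. Cfb, factor B of the alternative pathway, and C1s1, a protease of the C1 complex, were lower, with log2 differences of -0.85 (SE 0.22, limma adjusted p = 0.0285) and -0.48 (SE 0.12, limma adjusted p = 0.0283). Neither passed without transgenic 1, transgenic 2, wild-type 1 or wild-type 3, nor Cfb without transgenic 3 or C1s1 without wild-type 2, with adjusted p of 0.0619 to 0.107. Wild-type 3 was highest for both.

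Among 13 chemokines and receptors 1 was lower and 1 higher. Ccl6, a chemokine of myeloid cells in the mouse, gave 285.0, 304.0 and 248.4 units in transgenic muscle, against 570.7, 576.4 and 420.2 units in wild-type muscle. Its difference was -0.86 (SE 0.15, limma adjusted p = 0.00486) and its ranges were apart, while its 1 other tested probe set did not pass. Cxcl12, a chemokine of stromal cells, was higher by 0.44 (SE 0.12, limma adjusted p = 0.0336), with an adjusted p of 0.0538 to 0.108 without any 1 array. Of 18 presentation genes, the protease Ctsl was lower, with a log2 difference of -0.50 (SE 0.09, limma adjusted p = 0.00589), 0 were higher and 17 did not pass, and Ctsl did not pass when its probe sets were averaged (adjusted p = 0.0642) or without the intensity trend (0.0593).

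In the other lists 1 gene passed at most. Of 6 T and NK cell genes, Cd28, a costimulatory receptor, gave 66.2, 86.6 and 84.5 units in transgenic muscle, against 156.2, 181.4 and 171.3 units in wild-type muscle, a difference of -0.97 (SE 0.17, limma adjusted p = 0.00457), while its other tested probe set did not pass. Of 7 granulocyte and mast cell genes, Mmp9, a matrix protease, was higher by 0.73 (SE 0.21, limma adjusted p = 0.0481), with an adjusted p of 0.0804 to 0.155 without transgenic 1, 2 or 3 or without wild-type 1 or 2. That list had a median of 0.53, and at an unadjusted p under 0.05 by limma 4 of its genes were higher and 0 lower. Ranges were apart with transgenic muscle higher for 18.6% of all tested genes, and for that list's mast cell proteases Cma1, Cpa3 and Tpsb2. They differed by 0.48 (SE 0.21), 0.53 (SE 0.18) and 0.62 (SE 0.21), but did not pass (limma adjusted p of 0.181, 0.0812 and 0.0901). Ranges overlapped for Kit, which differed by 0.63 (SE 0.37, limma adjusted p = 0.319). They also overlapped for Mcpt4, Fcer1a and Ms4a2, which were too dim to be tested. Mean signals in transgenic and wild-type muscle were 45.8 and 26.5 units for Mcpt4, 12.9 and 20.0 for Fcer1a, and 11.7 and 13.5 for Ms4a2. These mast cell genes were named after their values were seen. Of 15 interferon response genes, Rsad2, an antiviral protein, was higher by 0.71 (SE 0.16, limma adjusted p = 0.0148). Its adjusted p was 0.0526 to 0.0656 without transgenic 1, transgenic 3 or wild-type 1, and its 2 other tested probe sets did not pass. Of 5 B and plasma cell genes 0 passed (0 in either direction at an unadjusted p under 0.05 by limma). Bank1, an adaptor of B cell receptor signalling, had the smallest p, at 116.5, 95.5 and 64 units in transgenic muscle, against 53.3, 66.5 and 58.1 units in wild-type muscle (limma adjusted p = 0.222).

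Summed signals of other cell types are given beside those of the leukocyte genes. The macrophage, scavenger receptor, Fc receptor and C1q genes summed to 4015, 4189 and 3481 units in transgenic muscle, against 5368, 4820 and 5218 units in wild-type muscle, so the sums did not overlap. Their median difference was -0.41, and 2 of 16 tested were lower. Sums of the other macrophage genes were also apart, at 8870 to 9646 units in transgenic and 10520 to 11680 units in wild-type muscle. Yet their median difference over 24 tested genes was 0.02. The sums of myeloid signalling genes, of complement genes and of all 37 leukocyte genes with Ighm were apart in the same direction. Those of granulocyte and mast cell genes were apart with transgenic muscle higher. Sums overlapped for leukocyte genes without Ighm, pan-leukocyte genes and class II presentation genes. All leukocyte genes without Ighm summed to 6578 to 7862 units in transgenic and 7820 to 9386 units in wild-type muscle. The pan-leukocyte genes summed to 469.9 to 578.8 units in transgenic and 499.1 to 594.3 units in wild-type muscle. The 5 class II presentation genes summed to 3013, 2669 and 2355 units in transgenic muscle, against 2710, 2254 and 3358 units in wild-type muscle. Fibroblast markers, of which 11 of 12 had a probe set, summed to 31730 to 31860 units in transgenic muscle, against 33720 to 38640 units in wild-type muscle, with 1 of 11 tested lower, 0 higher and a median of -0.15.

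Adipocyte markers, of which 8 of 10 had a probe set, summed to 13750, 18580 and 13000 units in transgenic muscle, against 14370, 11800 and 32740 units in wild-type muscle, with 0 of 8 passing by limma (0 also at an unadjusted p under 0.05). Wild-type 3 thus stood apart in these markers, and it was also the highest array for H2-Aa, H2-Eb1, Cd163, Cfb and C1s1. Without wild-type 3 the genes called lower among the 37 were Folr2, Ighm and Lyz2, as with all arrays. The 12 endothelial markers summed to 5025 to 5797 units in transgenic muscle, against 2973 to 3596 units in wild-type muscle, with 6 higher and 0 lower. The 6 mural cell markers, of the cells around vessels, summed to 11640 to 13260 units in transgenic muscle, against 7302 to 8835 units in wild-type muscle, with 1 higher and 0 lower. The 5 satellite cell markers, of the stem cells of muscle, summed to 425.9 to 511.2 units in transgenic muscle, against 574.3 to 624.0 units in wild-type muscle. Their median was -0.43, and 0 passed (2 lower and 0 higher at an unadjusted p under 0.05 by limma). No marker of these lists was listed at 0. The part of these cell types in the leukocyte differences was not tested.

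**Figure D5:**
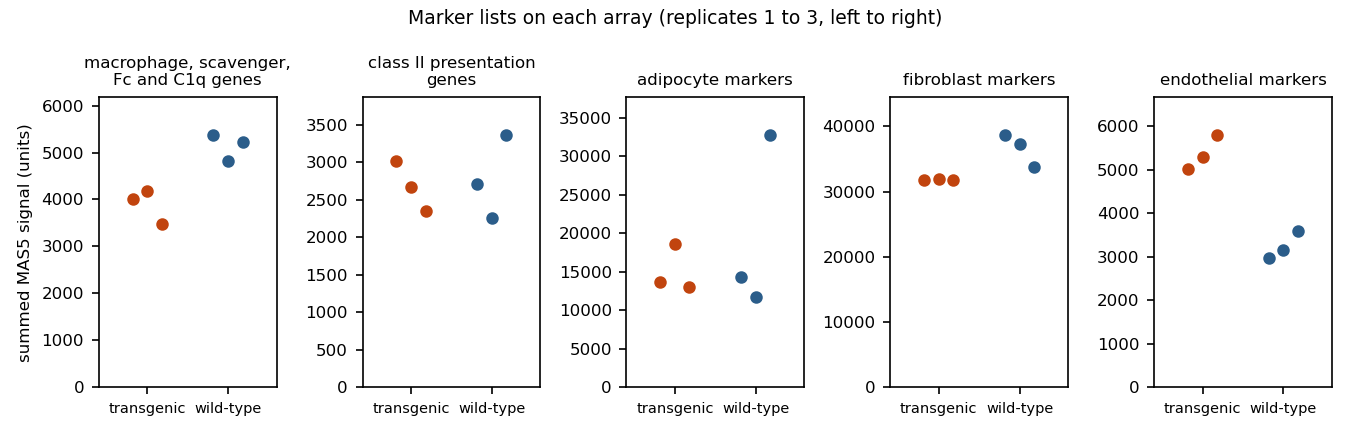
Summed MAS5 signal in linear units of 5 marker lists on each array, over the brightest probe set of each gene. The macrophage, scavenger, Fc and C1q sum is 3481 to 4189 units in transgenic and 4820 to 5368 units in wild-type arrays, and the adipocyte sum is highest on wild-type 3, at 32740 units.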

How the data were processed

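Biotinylated cRNA from quadriceps total RNA was read on 6 Affymetrix arrays, per the labels' protocols. The deposited files hold 1 linear intensity per probe set and array, which the submitters' processing notes credit to MAS5. Its version and settings are not stated there, and no detection calls were used. The 2% trimmed mean was 199.9 units on every array. The number of arrays limits the precision. From these values log2(signal + 16) was computed, which understates changes of dim probe sets. Of 45101 probe sets, 64 controls were left out, and 26997 with a mean signal above the 40th percentile were tested with limma 3.58.1 in R 4.3.3 (intensity trend, two-sided, Benjamini-Hochberg). The platform annotation names 1 gene for 34945 probe sets, several for 932, and 9160 are unnamed here. All 37 genes are described, with up to 3 passing genes of each related list, those with the largest difference, or else the gene with the smallest p. Esrrg checks the labels. Il34, Csf1, Lyve1, Cd59a, Cma1, Cpa3, Tpsb2, Kit, Mcpt4, Fcer1a and Ms4a2 were named after their values were seen. The members, lists and tests were chosen with earlier results of these data known. Same-numbered arrays did not deviate together (correlations of 0.07, -0.08 and -0.02), so numbers were not taken as pairs. A simulation of 26997 probe sets with 3 arrays per genotype recovered 69 of 100 2-fold and 96 of 100 4-fold changes, with 8 false calls among 173. Its noise was Gaussian, and each probe set's variance was averaged with the median variance. Folds were set on the log2(signal + 16) scale, and far fewer probe sets were changed than the 3115 called in the data. Its rates therefore describe these settings and not the data. Upstream sequences are RefSeq's for GRCm38.p6. Alternatives covered the added constant, filter, scaling, variance model, averaging of probe sets and omission of arrays. Scaling over the tested probe sets was added after seeing the data. Plots used matplotlib 3.10.9.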

Additional observations from a re-analysis of the deposited data

How the results depend on the processing

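Of 19 alternatives, none made a leukocyte gene pass as higher, and Folr2 passed in all 19. The 3 genes called lower became 7 with arrays scaled to 1 median over all probe sets (C1qa, C1qb, C1qc, Cd163, Folr2, Ighm and Lyz2), and 2 to 4 without any 1 array. With probe sets averaged they were again 3, but C1qb, Folr2 and Lyz2. The median of -0.25 lay between -0.28 and -0.18 without any 1 array. Leukocyte probe sets called lower, 5 in all, became 11 with median scaling and 3 without the intensity trend, and 3 to 6 without any 1 array. The 1 called higher became 0 with a 60th percentile filter, with no filter and without the trend, 2 with the replicate block, and 0 to 1 without any 1 array. Related genes called lower, 9 in all, became 14 with median scaling and 5 without the trend, and 7 to 8 without any 1 array. The 4 called higher became 0 with median scaling and without the trend, 1 with scaling over the tested probe sets, with the replicate block and without replicate 3 of both genotypes, and 0 to 3 without any 1 array. All probe sets called numbered 3115, but 1583 without the trend and 1705 to 3301 without any 1 array. Of them 1721 were higher and 1394 lower (55.2% higher), against 972 and 2390 (28.9%) with median scaling and 1355 and 1770 (43.4%) with scaling over the tested probe sets. The causes were not tested. The replicate block is no paired analysis, since the numbers do not pair the arrays. With it, Cd163 passed (adjusted p = 0.0450) and the C1qb probe set that had passed did not (0.0616).

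The log2 difference changed sign for 12 of 30 genes, none of which had passed. With median scaling it was -0.069 for Cd14, -0.068 for Cd74, -0.13 for H2-Aa and -0.11 for H2-Ab1. With scaling over the tested probe sets it was -0.043 for H2-Aa and -0.023 for H2-Ab1, and with quantile normalization it was -0.00049 for Cd14. With probe sets averaged it was 0.41 for Ccr2, -0.065 for H2-Ab1 and -0.11 for Laptm5, and with array weights 0.04 for H2-Eb1. Without replicate 3 of both genotypes it was 0.080 for Csf1r, 0.13 for H2-Eb1 and 0.10 for Tyrobp. Without any 1 array it ranged over -0.086 to 0.30 for Cd14, -0.20 to 0.0016 for Cd53, -0.25 to 0.0023 for Csf1r, -0.16 to 0.13 for Fcgr1, -0.20 to 0.24 for H2-Aa, -0.049 to 0.20 for H2-Ab1, -0.26 to 0.13 for H2-Eb1, -0.11 to 0.060 for Itgb2 and -0.20 to 0.024 for Tyrobp. Probe sets with a mean signal of 37.8 units or less were not tested, and 7 of the 37 genes, among them both T cell genes, have no test for that reason.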
